A study of Mus musculus with 2 samples.

Results

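The Krüppel-like factors described here are Klf2, Klf3, Klf4, Klf6, Klf7, Klf10 and Klf13. They were taken by gene symbol, and they are 7 of the 32589 features in the count matrices. The cells came from the prefrontal cortex of C57BL/6 mice. Mice in one group received vehicle, and mice in the other received corticosterone, the main glucocorticoid of rodents, by oral gavage as a model of depression. Dissected tissue was digested with an enzyme mix at warm temperature, and cells with low CD45 and positive CD11b staining, the usual gate for microglia, were sorted and made into a GEXSCOPE single-cell library. There was 1 library per group. The dose, the length of treatment, the age and sex of the mice and the number of mice per library were not given in the sources used here.

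Krüppel-like factors are transcription factors that bind GC-rich and CACCC-type DNA through zinc fingers at their C-terminal end. KLF2 and KLF4 are known in macrophages and endothelium as brakes on inflammatory gene expression, and KLF6 as a promoter of it. KLF3 and KLF10 act largely as repressors through partner proteins, and KLF10 is induced by TGF-beta. KLF13 is known from T lymphocytes, and KLF7 from neuronal development. Several family genes are also immediate early genes, whose transcripts accumulate within a short time when cells are stimulated or tissue is dissociated.

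In microglia-like cells Klf2 stood apart from the other family members. It was much lower in the corticosterone library than in the vehicle library, whereas Klf6 was slightly higher there. Klf7 and Klf10 were lower by at least 1.5-fold, and Klf3 and Klf4 were lower by less. In neutrophil-like and monocyte-like cells Klf2 was higher with corticosterone, in classes whose microglial marker RNA also differed between the libraries.

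The genes lie on separate chromosomes (GRCm38, GENCODE gene models). Klf2 (ENSMUSG00000055148) spans 72319033 to 72321656 on the plus strand of chromosome 8. Klf4 (ENSMUSG00000003032) spans 55527143 to 55532466 on the minus strand of chromosome 4, and Klf6 (ENSMUSG00000000078) spans 5861482 to 5870394 on the plus strand of chromosome 13. Klf3 (ENSMUSG00000029178) is on chromosome 5, Klf7 (ENSMUSG00000025959) on chromosome 1, Klf10 (ENSMUSG00000037465) on chromosome 15 and Klf13 (ENSMUSG00000052040) on chromosome 7. Genes on the opposite strand overlap Klf3 (Gm20033), Klf7 (Gm13748) and Klf13 (E030018B13Rik and Gm27252). Whether the counting used strand is not given in the sources used here, so reads of these 3 members and of their overlapping partners may not be separated.

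RefSeq promoter windows (GRCm38.p6) were matched for 6 of the 7 members, Klf10 being the exception. Those of Klf2, Klf4 and Klf6 are shown because Klf2 and Klf6 differed in opposite directions between the libraries and Klf4 is the close relative of Klf2. Only bases before the first annotated exon are printed, 5′ to 3′ on the strand of the gene. Capitals mark GC boxes (GGGCGG on either strand) in all 3, a match to the MEF2 motif in Klf2, and the E-box CACGTG in Klf4 and Klf6.
Klf2, chr8:72318812-72319032, plus strand: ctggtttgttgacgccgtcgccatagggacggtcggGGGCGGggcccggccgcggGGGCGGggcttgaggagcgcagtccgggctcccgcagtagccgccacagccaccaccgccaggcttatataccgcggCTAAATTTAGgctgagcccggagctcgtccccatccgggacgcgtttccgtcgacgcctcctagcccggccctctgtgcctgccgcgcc
Klf4, chr4:55532476-55532725, minus strand: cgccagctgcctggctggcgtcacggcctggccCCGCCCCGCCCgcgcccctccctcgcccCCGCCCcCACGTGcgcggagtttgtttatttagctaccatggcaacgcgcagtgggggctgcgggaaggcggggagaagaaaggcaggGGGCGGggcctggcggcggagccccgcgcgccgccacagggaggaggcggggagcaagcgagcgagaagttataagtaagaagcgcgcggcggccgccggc
Klf6, chr13:5861239-5861481, plus strand: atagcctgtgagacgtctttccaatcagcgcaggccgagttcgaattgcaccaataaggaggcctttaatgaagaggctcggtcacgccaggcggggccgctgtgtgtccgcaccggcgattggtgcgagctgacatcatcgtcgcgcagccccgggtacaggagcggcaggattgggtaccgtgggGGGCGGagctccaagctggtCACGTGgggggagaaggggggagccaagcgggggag
MEF2 proteins are the transcription factors through which the ERK5 kinase pathway induces Klf2 in endothelium. Positions below count from the RefSeq start at the end of each 250-base window. For these genes that start differs from the GENCODE start given above. The last 29 bases of the Klf2 window and the last 7 of the Klf6 window lie in exons and are not printed. The MEF2 match of Klf2 begins at -118. Of the 6 member windows 1 held a match, against 3.01% of 27025 windows of the same length. E-boxes began at -182 in Klf4 and -43 in Klf6, and 6.05% of windows held one. GC boxes were found in all 6 member windows and in 32.9% of windows overall. Both strands were searched, and a match is a description of the letters, not evidence of binding.

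The matrices held 10555 vehicle and 18113 corticosterone barcodes. After filters on unique molecular identifiers (UMIs, 1 per captured transcript), genes and mitochondrial reads, 10500 and 17883 cells remained, with 49325067 and 85103539 UMIs and medians of 3220.5 and 3961 UMIs per cell. Clusters were named from marker genes, with all Klf and Sp genes left out of the clustering. Microglia-like cells numbered 7838 in vehicle and 15055 in corticosterone. Border-associated macrophage-like cells numbered 1027 and 804, neutrophil-like cells 472 and 422, erythroid-like cells 143 and 146, and monocyte-like cells 52 and 66. A set of 926 and 1361 cells stayed unnamed, and the endothelial-like cluster, with 42 and 29 cells, was under the minimum of 50. The sort was for microglia, and barcodes of the other classes also carried microglial RNA. The microglial marker level of a class is the median of the ratios of Sall1, P2ry12, Tmem119 and Siglech to their levels in microglia-like cells. It was 0.783 in vehicle and 0.889 in corticosterone in erythroid-like barcodes, and 0.809 and 0.652 in border-associated macrophage-like ones. It was 0.572 and 0.375 in neutrophil-like barcodes and 0.730 and 0.260 in monocyte-like ones. Whether these barcodes are other cells, or microglial RNA mixed with that of other cells, was not tested. Because each group is 1 library, treatment, mice, library and handling cannot be told apart. No test between groups was possible, and the 95% exact intervals below cover counting error only.

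Levels are given as CPM, the UMIs of a gene summed over a class and scaled to a total of 1000000 UMIs, and a log2 ratio is that of corticosterone over vehicle. Counts were not corrected for transcript length, so levels were compared between libraries and classes, not between genes.

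Vehicle microglia-like cells held 476 CPM (468 to 483) of Klf2, and those of the corticosterone library held 158 CPM (155 to 161). The log2 ratio was -1.59 (-1.62 to -1.55), and 25 of the 6604 genes with a mean of at least 20 CPM had a lower one. Klf4, its relative with a known part in monocyte differentiation, measured 208 CPM (204 to 213) with vehicle and 145 CPM (142 to 148) with corticosterone. Its log2 ratio of -0.52 (-0.57 to -0.48) was under 1.5-fold. Klf2 thus differed between the libraries by much more than Klf4.

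Klf6, which is quickly induced after injury in many tissues, measured 553 CPM (545 to 561) with vehicle and 623 CPM (617 to 629) with corticosterone, giving a log2 ratio of 0.17 (0.15 to 0.20). Klf7 was at 79.7 CPM (76.6 to 82.8) and 49.8 CPM (48.2 to 51.5), a log2 ratio of -0.68 (-0.75 to -0.60). These 2 genes belong to the same branch of the family and differed in opposite directions.

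Klf3, a repressor that recruits the CtBP corepressors, measured 200 CPM (195 to 205) with vehicle and 155 CPM (152 to 158) with corticosterone, giving a log2 ratio of -0.37 (-0.41 to -0.32). Klf10 was at 17.7 CPM (16.3 to 19.2) and 10.1 CPM (9.41 to 10.9), a log2 ratio of -0.80 (-0.96 to -0.64) from 568 and 713 UMIs. Klf13 was at 95.6 CPM (92.3 to 99.1) and 107 CPM (105 to 110), a log2 ratio of 0.16 (0.10 to 0.23). The direction of Klf13 depended on the setting, since it was -0.053 when every cell was thinned to 1000 UMIs. Klf3 and Klf10 were thus lower in the corticosterone library, and Klf13 had no settled direction.

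In all, 3 of the 7 members, Klf2, Klf7 and Klf10, were lower in the corticosterone library by at least 1.5-fold, and 0 were higher by as much. Of the 6604 genes at 20 mean CPM or more, 4.72% were lower and 5.25% higher by that fold. Klf2 and Klf7 were the 2 called among the 6 members at that level, with Klf10 under it. The median log2 ratio was -0.45 over those 6 members and 0.00 over all 6604 genes. Scaling by edgeR's TMM or DESeq2's size factors in place of total UMIs moved all ratios up by 0.09 or 0.11. It moved the share of lower and higher genes to 3.45% and 7.07% with TMM, and to 3.16% and 7.77% with DESeq2. Under the DESeq2 scaling the ratio of Klf7 was -0.57, short of 1.5-fold. With 2 earlier forms of clustering, which kept few vehicle cells as microglia-like, Klf7 was at -0.53 and -0.44, Klf4 passed the fold at -0.72 and -0.67, and Klf10 was at -0.39 and -0.91. With no minimum level, 22.2% of genes were lower and 10.2% higher by 1.5-fold.

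**Figure D1:**
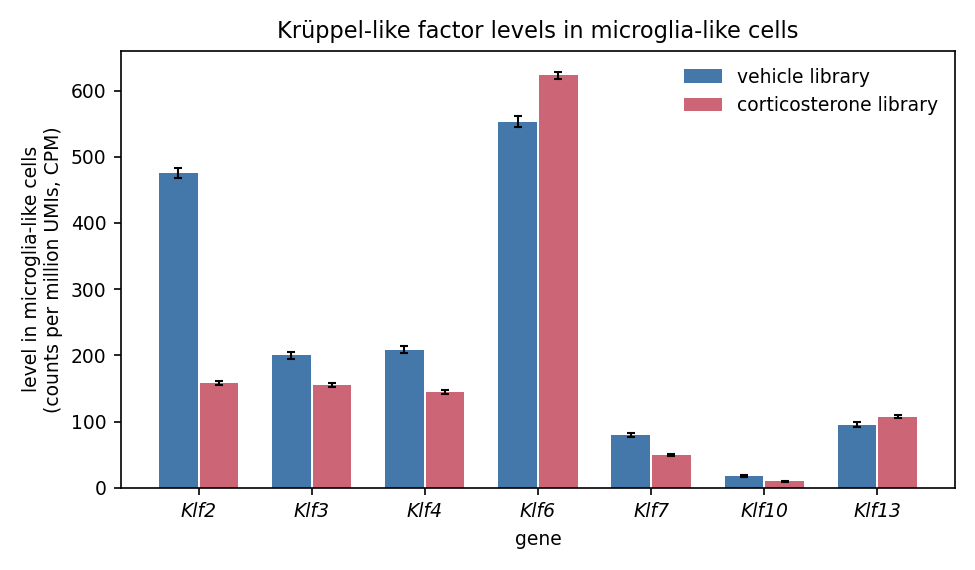
Level of each member in microglia-like cells, in CPM (vertical axis), in the vehicle and the corticosterone library. Bars are sums over 1 library each and error lines are 95% exact intervals for counting error. Klf2 goes from 476 to 158 CPM, while Klf6 goes from 553 to 623 CPM.

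Transcripts of other cell types differed between the libraries within the microglia-like class. The 10 neutrophil markers summed to 423 CPM with vehicle and 134 CPM with corticosterone, the 9 border-associated macrophage markers to 90.2 and 38.2 CPM, and the 6 astrocyte markers to 208 and 92.3 CPM. The 7 monocyte markers were the reverse, at 19.1 and 35.4 CPM. In the 3372 vehicle and 9308 corticosterone cells without a UMI of any neutrophil marker, the log2 ratio of Klf2 was -1.58. Leaving out cells whose barcode occurs in both libraries (104 barcodes in the matrices) also gave -1.58 for Klf2.

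The microglia-like class was made of 3 clusters. Cluster 0 (4766 and 8858 cells) was led by genes of acute stimulation such as Rcan1, Egr3 and Tnf, cluster 1 (2950 and 5459 cells) by Cmss1 and Rgs1, and cluster 4 (122 and 738 cells) by interferon-induced genes. Klf2 was lower with corticosterone in each, with log2 ratios of -1.66 (-1.70 to -1.61), -1.40 (-1.47 to -1.34) and -1.80 (-2.03 to -1.56). Klf4 was the member that differed most between clusters 1 and 0, with log2 ratios of cluster 1 over cluster 0 of 0.67 in vehicle and 0.65 in corticosterone. For Klf6 those ratios were -0.11 and -0.30, so it was lower in cluster 1. In cluster 4 the ratio of corticosterone over vehicle for Klf6 was -0.19 (-0.36 to -0.02), opposite to the class as a whole.

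Cells of different depth, in 4 ranges chosen after the data were seen, gave the same direction for Klf2. Its log2 ratio was -2.12 (-2.43 to -1.83) in cells of 500 to under 2000 UMIs and -1.47 (-1.54 to -1.40) in cells of 8000 or more. Klf4 was lower in all 4 depth ranges too, from -1.03 in the shallowest to -0.46 in the deepest. Klf6 was not alike over depth: its ratio was -0.43 (-0.60 to -0.27) in the 1732 vehicle and 700 corticosterone cells of the shallowest range and 0.34 (0.29 to 0.39) in the deepest. Klf13 was likewise at -0.18 (-0.53 to 0.17) in the shallowest range, and at 0.24 (0.14 to 0.35) in cells of 4000 to under 8000 UMIs.

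**Figure D2:**
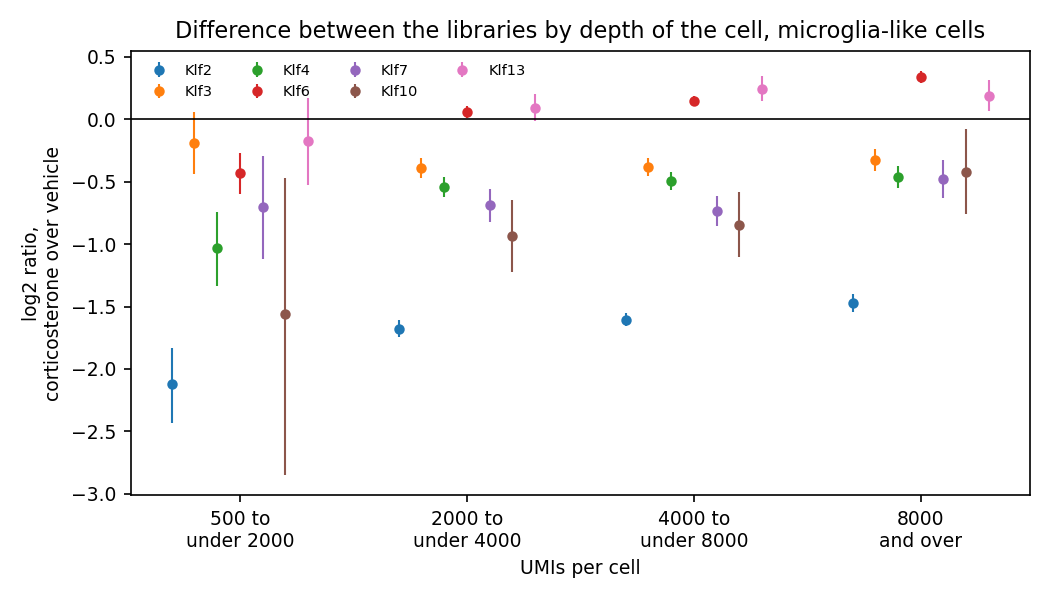
Log2 ratio of corticosterone over vehicle (vertical axis) for each member in microglia-like cells of 4 ranges of UMIs per cell (horizontal axis), with 95% exact intervals for counting error. Klf2 lies lowest in every range, from -2.12 to -1.47, and Klf6 goes from -0.43 in the shallowest cells to 0.34 in the deepest.

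The share of cells with a transcript was compared after each cell was thinned to 1000 UMIs, which left 7238 vehicle and 14968 corticosterone microglia-like cells and left out 600 and 87. Klf2 was found in 29.3% (28.2 to 30.3%) of vehicle cells and 10.2% (9.71 to 10.7%) of corticosterone cells, against 52.4% and 25.3% before thinning. The Klf6 shares were closer, 37.8% (36.7 to 39.0%) for vehicle and 38.9% (38.1 to 39.7%) for corticosterone, with 66.6% and 74.0% before thinning. For Klf4 the thinned shares were 16.4% and 11.5%, against 37.4% and 31.5%. Klf2 was the most unevenly spread member over cells, with a variance of 1.98 and 2.23 times its mean at this depth. Of vehicle cells 4.45% held 3 or more Klf2 UMIs, and of corticosterone cells 1.13%. Cells with a Klf2 UMI held a mean of 1.65 UMIs in vehicle and 1.52 in corticosterone. At such low counts a lower level per cell and fewer cells with the transcript cannot be told apart. Erythroid-like barcodes, led by haemoglobin genes, gave Klf2 shares of 28.8% (20.8 to 37.9%) and 13.2% (8.13 to 19.8%) at the same depth. Their unthinned median depth was 2895 and 3843.5 UMIs, beside 3182.5 and 3999 in microglia-like cells. Since those barcodes also carried microglial marker RNA, the shares were not read as shares of cells that express the gene.

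Because tissue digestion can induce immediate early genes, microglia-like cells were also divided into 5 bins by the summed UMIs of 28 immediate early and heat shock genes after thinning. The median sum was 61 UMIs per 1000 in vehicle and 53 in corticosterone. Klf6 went with this sum in both libraries, from 419 CPM in the lowest bin to 684 CPM in the highest in vehicle, and from 424 to 825 CPM in corticosterone. Klf2 went from 344 to 636 CPM in vehicle and from 146 to 201 CPM in corticosterone. Within bins the log2 ratio of Klf2 lay between -1.23 (-1.42 to -1.04) in the lowest bin and -1.66 in the highest. Klf4 differed over the bins: its ratio was -0.74 (-0.96 to -0.52) in the lowest bin and 0.00 (-0.21 to 0.21) in the highest, where the levels were 196 CPM with vehicle and 195 CPM with corticosterone. With the bins weighted equally the log2 ratios were -1.58 for Klf2, -0.52 for Klf4, 0.24 for Klf6 and -0.04 for Klf13. The part that digestion or sorting had in these levels was not tested.

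**Figure D3:**
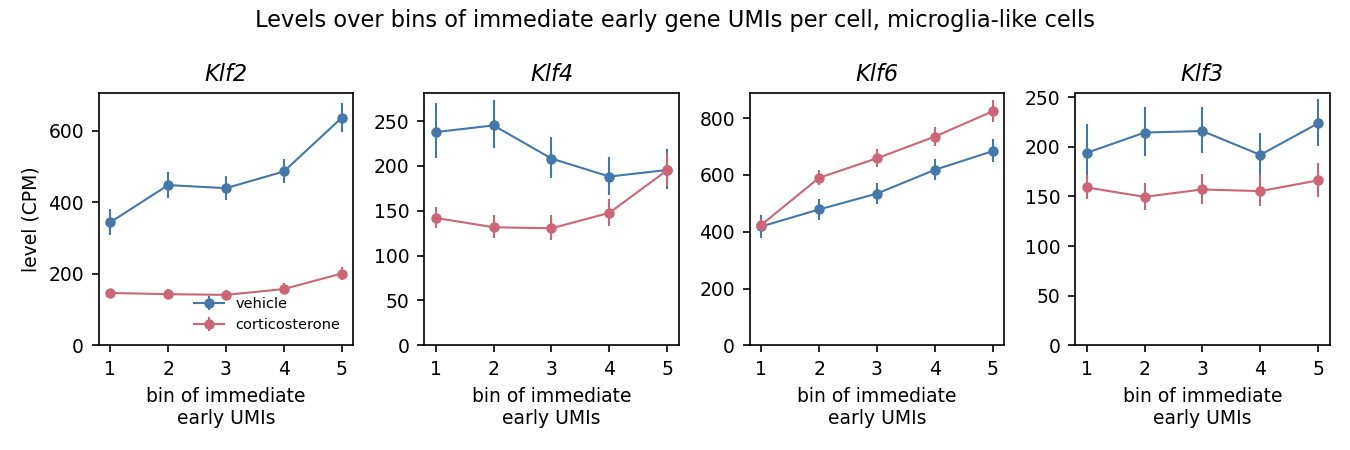
Levels of Klf2, Klf4, Klf6 and Klf3 (CPM, vertical axis) in microglia-like cells thinned to 1000 UMIs, over 5 bins of immediate early gene UMIs per cell from lowest to highest (horizontal axis). Points are 1 library each with 95% exact intervals for counting error. Klf6 increases over the bins in both libraries, Klf2 stays lower with corticosterone in every bin, and the Klf4 levels meet at 196 and 195 CPM in the last bin.

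In neutrophil-like and monocyte-like cells Klf2 did not keep the direction it had in microglia-like cells. Neutrophil-like cells had 871 CPM (834 to 909) with vehicle and 1398 CPM (1351 to 1446) with corticosterone, giving a log2 ratio of 0.68 (0.60 to 0.76). The microglial marker level in them was 0.572 and 0.375, and their mix of clusters differed: cluster 5 held 203 vehicle and 272 corticosterone cells, and cluster 6 held 269 and 150. Monocyte-like cells had 741 CPM (651 to 840) and 1341 CPM (1243 to 1444), a log2 ratio of 0.86 (0.64 to 1.07). In these 52 and 66 barcodes the microglial marker level was also lower with corticosterone (0.730 and 0.260 of that in microglia-like cells), and the median depth was 3382 and 6770 UMIs. The part of this in the Klf2 difference was not tested. Border-associated macrophages are the resident macrophages of the meninges and vessels. Barcodes like them were close between the libraries in Klf2, at 541 CPM (527 to 555) and 481 CPM (464 to 497). Their log2 ratio was -0.17 (-0.23 to -0.11), in the same direction as in microglia-like cells. Their microglial marker level was 0.809 in vehicle and 0.652 in corticosterone, and its part in their Klf2 levels was not tested.

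Erythroid-like barcodes went with the microglia, at 496 CPM (434 to 566) and 198 CPM (166 to 234). In vehicle the order of Klf2 levels was neutrophil-like, monocyte-like, border-associated macrophage-like, erythroid-like and microglia-like. The intervals of the first pair overlapped, as did those of erythroid-like cells with both of their neighbours. In corticosterone neutrophil-like and monocyte-like cells led with overlapping intervals, and microglia-like cells were again last. Neutrophil-like cells exceeded microglia-like cells by a log2 ratio of 0.87 in vehicle and 3.14 in corticosterone. Klf2 was higher with corticosterone in both neutrophil clusters. In cluster 5, whose leading genes include Cxcr2, it was at 1042 and 1940 CPM, a log2 ratio of 0.90 (0.80 to 0.99). In cluster 6, led by the granule genes Camp, Ngp and Ltf, it was at 667 and 839 CPM, and its ratio of 0.33 (0.19 to 0.47) was under 1.5-fold.

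In neutrophil-like cells Klf2 was the 1 member of 7 that was higher by at least 1.5-fold, beside 8.44% of 5970 genes, and 0 were lower, beside 15.1%. Among border-associated macrophage-like cells 0 of the 6 members at 20 mean CPM or more passed that fold in either direction. In them 4.91% of 6578 genes were lower and 5.97% higher. The share of border-associated macrophage-like cells with a Klf2 UMI was 75.2% (72.4 to 77.8%) in vehicle and 53.0% (49.5 to 56.5%) in corticosterone. After thinning it was 34.2% and 26.6%, although their summed levels were close. Their median depth was 6626 and 6591.5 UMIs.

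Klf4 was at 259 CPM (250 to 269) in border-associated macrophage-like cells with vehicle and 291 CPM (279 to 305) with corticosterone. In neutrophil-like cells Klf4 was at 131 CPM (117 to 146) and 93.7 CPM (81.9 to 107), the lowest of the 5 classes in both libraries. Within them the Klf4 log2 ratio was -0.08 (-0.37 to 0.21) in cluster 5, from 210 and 188 UMIs, and -1.51 (-2.07 to -0.97) in cluster 6, from 104 and 40 UMIs. Klf6 was highest in border-associated macrophage-like cells, at 772 CPM (756 to 789) and 942 CPM (919 to 965). Its ratio, summed over each class, was above 0 in each of the 5 classes with at least 50 cells. The intervals of the Klf6 ratio in erythroid-like and monocyte-like cells included 0. The neutrophil-like clusters differed in direction for Klf6, with 0.49 (0.36 to 0.62) in cluster 5 and -0.22 (-0.42 to -0.02) in cluster 6.

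Klf3 ratios ranged over the classes from -0.48 in erythroid-like to -0.08 in monocyte-like cells. Monocyte-like cells had the highest Klf13, at 206 CPM (160 to 261) and 325 CPM (278 to 378), and the highest Klf10, at 39.3 CPM (20.9 to 67.3) and 95.6 CPM (71.0 to 126). These rest on 68 and 170 UMIs of Klf13 and on 13 and 50 of Klf10. Klf7 in the same cells was at 81.7 CPM (53.8 to 119) and 17.2 CPM (7.87 to 32.7), from 27 and 9 UMIs.

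**Figure D4:**
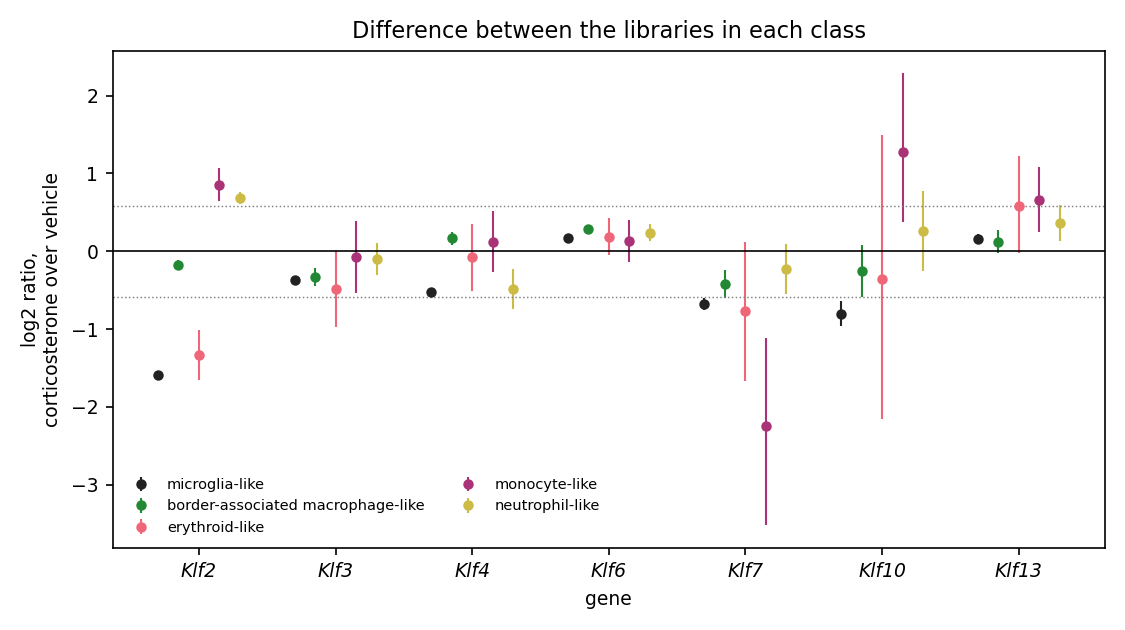
Log2 ratio of corticosterone over vehicle (vertical axis) of each member in 5 classes, with 95% exact intervals for counting error and dotted lines at 1.5-fold. Klf2 lies at -1.59 in microglia-like cells and at 0.68 and 0.86 in neutrophil-like and monocyte-like cells, while Klf6 lies above 0 in all 5 of these classes. Neutrophil cluster 6, not drawn separately, was at -0.22 for Klf6.

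Other genes of the family and its pathways were read in microglia-like cells from fixed lists, with the gene of highest and lowest ratio named. Over all 6604 genes at 20 mean CPM or more, 4.72% were lower and 5.25% higher by 1.5-fold, and the median ratio was 0.00. Of 19 other Klf and Sp genes 5 reached 20 mean CPM, and 0 of these differed by 1.5-fold in either direction, from Sp3 at 0.11 to Sp4 at -0.33. Klf9, a glucocorticoid-induced family member named outside the rule after its values were seen, was under that level with 1.99 CPM (1.53 to 2.54) for vehicle and 8.12 CPM (7.47 to 8.81) for corticosterone. Other family genes under the level, also outside the rule, did not all share that direction. Klf11 was at 16.3 CPM with vehicle and 9.34 CPM with corticosterone, and Klf15 at 0.498 and 0.128 CPM. Klf16, at 10.3 and 10.7 CPM, and Klf1, at 0.280 and 0.313 CPM, had ratios above 0 with intervals that included 0. With no minimum level, 10.2% of genes were higher and 22.2% lower by 1.5-fold. Of 15 genes for cofactors and turnover of Klf proteins at that level 0 differed by 1.5-fold, with a median ratio of 0.11, and Ctbp1, a corepressor used by KLF3, was highest at 0.48 and Crebbp, a histone acetyltransferase, lowest at -0.30.

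Of 12 genes upstream of Klf2 and Klf4 at the level, 0 passed 1.5-fold. Of these, 10 lay below 0 and the median was -0.22, beside a median of 0.00 over all 6604 genes. Scaling by TMM or DESeq2 moves every ratio up by 0.09 or 0.11, so the count below 0 depends on the scaling. Mapk7, which encodes ERK5, was highest at 0.12, and Mef2c was lowest at -0.43, with 642 CPM for vehicle and 476 CPM for corticosterone. Among 3 known targets of KLF2 or KLF4 at the level, 2 were lower by 1.5-fold, S1pr1 and Cdkn1a, where 4.72% of all 6604 genes were. Cdkn1a, a cell cycle inhibitor at -0.98, is also counted in the glucocorticoid response list. S1pr1, the sphingosine phosphate receptor that KLF2 activates in lymphocytes, had 77.6 CPM (74.6 to 80.7) with vehicle and 26.5 CPM (25.3 to 27.8) with corticosterone, giving a log2 ratio of -1.55. Cd14, the lipopolysaccharide coreceptor, was at 389 and 492 CPM, a log2 ratio of 0.34.

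For the next 3 lists, the shares over all 6604 genes are 4.72% lower and 5.25% higher by 1.5-fold, with a median ratio of 0.00. The TGF-beta list, relevant to Klf10, had 2 of 12 genes lower and 0 higher, with a median of -0.11, from Tgif1 at 0.30 to Smad7, the pathway's feedback inhibitor, at -1.05. Of 25 immediate early and dissociation genes 2 were higher and 7 lower, with a median of -0.19, from Ier3 at 0.66 to Nr4a1 at -1.52. Of 9 glucocorticoid response genes 1 was higher and 4 were lower, with a median of -0.24, from Sult1a1 at 0.71 to Tsc22d3, the gene of the glucocorticoid-induced leucine zipper, at -1.63. Under the level, and named outside the rule, Zbtb16 of that list was at 1.31 CPM with vehicle and 7.45 CPM with corticosterone. Ddit4 was at 3.49 and 5.57 CPM, and Klf9 is given above. Mt2, at 8.34 and 7.59 CPM, and Nfil3, at 7.32 and 6.95 CPM, went the other way with ratio intervals that included 0. The Klf3 and Klf13 target list had 0 genes at the level.

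Likeness to each member was measured as Pearson's r of log2(CPM + 10) over 10 profiles, the 5 classes in each library, among 6326 genes. The profiles share libraries and carry RNA of one another, so r is a description. Klf2 was most like Lst1 (r = 0.948) and Hacd4 (r = 0.925), and Klf4 most like Dnajc19 (r = 0.948) and Selenof (r = 0.943). Klf6 was most like Eps15 (r = 0.943) and Blvrb (r = 0.940), and Klf7 most like Fnip1 (r = 0.951) and Suco (r = 0.947). Klf3 was most like Bmt2 (r = 0.904) and Rsrp1 (r = 0.902), Klf10 most like Smpdl3a (r = 0.989) and Ap1s2 (r = 0.970), and Klf13 most like Myo1g (r = 0.976) and Itgb7 (r = 0.971).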

How the data were processed

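The authors deposited a matrix of raw UMI counts per gene and barcode for each library. Per the submitters' processing notes the build was GRCm38 and bcl2fastq 2.19 was used. The aligner, counter and annotation are not given in the sources used here. Cells with at least 500 UMIs, 300 genes and at most 20% mitochondrial UMIs were kept. Scrublet called 0 doublets in each library, was taken as not having worked, and no doublets were removed in the values reported.

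Clustering (scanpy 1.11.5, leidenalg 0.10.2, resolution 0.5) used 2000 variable genes and 30 principal components. It was run in 3 forms. The first 2 centred genes over both libraries together and left a cluster of 7159 vehicle and 215 corticosterone cells unnamed, so that only 623 or 673 vehicle cells were microglia-like. The third centred and scaled genes within each library, and was kept because its clusters mixed the libraries. That choice was made after the cluster names, and before any member's values, had been seen. The values from the other forms are given with the alternatives.

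UMIs were summed per class and library and scaled to CPM. Intervals were exact Poisson, binomial or conditional binomial, at 95%, and were checked on simulated data. The Poisson and conditional binomial intervals treat UMIs as independent and leave out variation between cells. For Klf2 in thinned microglia-like cells the variance over cells was 1.98 times the mean in vehicle and 2.23 times in corticosterone. Its intervals are thus likely too narrow, and the check on simulated data is not evidence about that spread. TMM factors came from edgeR 4.0.16 and size factors from DESeq2 1.42.0, as alternatives, and no gene was tested. Text names the 7 members, the 2 genes most like each, and the highest and lowest gene of each list at 20 mean CPM or more. Some genes under that level are named too, where marked as outside the rule. The members and lists were chosen with earlier results of these data known. Promoter windows were RefSeq's, and positions came from GENCODE models of GRCm38.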

Additional observations from a re-analysis of the deposited data

How the results depend on the processing

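Klf2 was lower in the corticosterone library under all 15 alternatives, from -1.66 to -1.16, the last with all filtered cells taken. Of the 15, 1 left out the cells with the highest Scrublet scores, although Scrublet was taken as not having worked. Klf3, Klf4, Klf7 and Klf10 were also below 0 under all 15, and Klf6 above 0, from 0.11 to 0.30. Klf13 reversed to -0.053 when cells were thinned to 1000 UMIs; the cause was not tested. With a 2-fold rule in place of 1.5-fold, 1 member was lower, and the share of all genes at that fold is not given here. Under the DESeq2 scaling, at 1.5-fold, 2 members were lower, beside 3.16% of the 6604 genes. Under the 2 earlier forms of clustering, added as alternatives after the data were seen, 2 and 3 members were lower: Klf4 passed 1.5-fold, at -0.72 and -0.67, and Klf7 did not, at -0.53 and -0.44, while Klf10 was at -0.39 and -0.91. These values rest on 623 and 673 vehicle cells, and the shares over all genes in those cells are not given here. The alternatives without neutrophil marker UMIs and without shared barcodes were also added after the data were seen. Thinning to 500 or 2000 UMIs kept Klf2 shares lower with corticosterone, at 17.2% and 5.71%, and at 43.9% and 16.1%. Of the low members, Klf10 rests on few UMIs per cell, which limits its precision. No paired analysis was possible because each group is 1 library.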
